A study of Homo sapiens with 18 samples.

Results

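The report concerns 8 genes of the zinc response in MDA-MB-436 cells, an established line of triple-negative breast cancer: the metallothioneins MT2A, MT1E, MT1F, MT1G, MT1M and MT1X, the transcription factor MTF1 and the zinc exporter SLC30A1. They were selected by name from the 57120 features of the TruSeq count table and the 44267 gene features of the PLATE-seq count table, and the list was drawn up with levels and changes in all 8 groups already known. Their levels and changes are therefore given as descriptions, with no p-value. After a filter on low counts, 7 of the 8 were tested in TruSeq (MT1G was not) and 5 of the 8 in PLATE-seq (MT1G, MT1M and MT1X were not).

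The series measured RNA in cells labelled as knockout for SMARCAL1 or given siRNA against it, and in controls. SMARCAL1 is a helicase that remodels stalled replication forks. TruSeq libraries of total RNA covered SMARCAL1 knockout clone 1 and a control labelled as the control genotype, with 3 libraries each. PLATE-seq, a plate-based assay that primes polyadenylated RNA, covered knockout clones 1, 2 and 3 and a control, and cells given siRNA against SMARCAL1 and cells given a control siRNA, with 2 libraries each. Each knockout line was a single clone, all groups grew in the same serum-containing medium, and the labels name no added metal and no way in which the gene was disrupted. The titles name MDA-MB-436 throughout. For PLATE-seq the tag that gives the line differs in each sample, with MDA-MB-437 the lowest and MDA-MB-448 the highest, which was taken as a labelling error.

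Metallothioneins are small cysteine-rich proteins that bind zinc, copper and cadmium through the sulfur of their cysteines, and so buffer free zinc. MTF1 senses zinc: when free zinc rises it binds metal response elements and switches on the metallothionein genes and SLC30A1, which pumps zinc out of the cell. MT2A is as a rule the most abundant human metallothionein, and cadmium, oxidants, glucocorticoids and cytokines also induce it.

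The TruSeq libraries held 10257584 to 19270648 counts and the PLATE-seq libraries 807861 to 3068887. Mitochondrial transcripts took 0.302% to 0.891% of TruSeq counts and 24.6% to 34.3% of PLATE-seq counts. Replicates of every group differed by more than counting noise, with a chi-square per degree of freedom of 6.46 to 22.9. The TruSeq libraries fell into 3 with 36042 to 39068 features detected (knockout replicate 1, control replicates 1 and 2) and 3 with 28621 to 30653. In PLATE-seq the 6 libraries numbered 1 held 351 to 632 spike-in counts and the 6 numbered 2 held 3 to 17, a difference on which the labels are silent. SMARCAL1 itself stood at 13.4 to 14.7 CPM in TruSeq knockout libraries and 13.9 to 16.1 CPM in control libraries (CPM, counts scaled to a TMM-adjusted library size), at 3 to 44 PLATE-seq counts in the clones against 0 and 3 in their control, and at 0 counts with the siRNA against 7 and 8 without it. VIM, CD44 and AXL, which mark mesenchymal-like breast cancer lines, were present at 73.2 CPM or more in every library, and ESR1, PGR and GATA3 were at 1.78 CPM or less. Leukocyte and endothelial markers were at 4.78 CPM or less. ERBB2 was at 37.3 to 53.5 CPM in TruSeq and 9.12 CPM or less in PLATE-seq.

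All 6 metallothionein genes lie in a cluster of 119148 bases on chromosome 16 (56565049 to 56684196, GRCh38) that holds 16 annotated metallothionein genes, 11 of them protein coding. In order along the chromosome they are MT2A (56608199 to 56609497), MT1E (56625475 to 56627112), MT1M (56632233 to 56633986), MT1F (56657694 to 56660698), MT1G (56666731 to 56668065) and MT1X (56682424 to 56684196), with MT1G on the minus strand and the others on the plus strand. MTF1 (37809567 to 37859620) and SLC30A1 (211571568 to 211578742) are both on the minus strand of chromosome 1. Coordinates are those of GENCODE release 29.

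The coding sequences of the family differ at few bases, which bears on how reads are told apart. In GENCODE release 29 all 6 are 186 bases long, with 61 codons before the stop, 20 of which (32.8%) encode cysteine. Identity to MT2A was 92.5% for MT1E, 91.4% for MT1F, 95.2% for MT1G, 89.8% for MT1M and 92.5% for MT1X. The 3 metallothioneins most abundant in TruSeq are printed 5′ to 3′, with capitals at the bases that differ from MT2A. 
MT2A: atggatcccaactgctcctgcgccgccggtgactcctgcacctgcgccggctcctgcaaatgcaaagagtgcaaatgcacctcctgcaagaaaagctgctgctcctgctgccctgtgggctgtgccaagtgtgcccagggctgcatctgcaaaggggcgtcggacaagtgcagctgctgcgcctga
MT1E: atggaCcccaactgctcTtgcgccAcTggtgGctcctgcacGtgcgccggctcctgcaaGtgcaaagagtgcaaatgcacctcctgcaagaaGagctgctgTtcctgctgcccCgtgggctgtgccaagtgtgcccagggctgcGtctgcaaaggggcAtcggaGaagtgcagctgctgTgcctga
MT1X: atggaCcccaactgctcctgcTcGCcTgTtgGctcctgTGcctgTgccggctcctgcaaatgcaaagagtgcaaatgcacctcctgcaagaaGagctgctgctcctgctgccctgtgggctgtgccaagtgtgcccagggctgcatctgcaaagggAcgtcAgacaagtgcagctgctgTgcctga

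Over whole transcripts the genes are easier to separate. Of the 50-base windows of each gene's transcripts, 3.02% were shared with another gene for MT2A, 7.10% for MT1E, 1.22% for MT1F, 9.87% for MT1M, 16.5% for MT1G and 18.3% for MT1X. At 100 bases MT1X alone shared windows, 11.3% of them, and its exons overlap a transcript annotated as AC026461.1 on the same strand. How the authors' counting treated reads that match several genes or overlapping ones is not given in the sources used here, so the split among metallothioneins is uncertain, most of all for MT1G and MT1X.

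The promoters of MT2A and MT1X held matches to the sites that MTF1 is known to recognise, in numbers that few promoters reach. RefSeq promoters (GRCh38.p14) were found for 4 members, and the 250 bases before the start were searched on both strands for the core of the metal response element, written TGCACNC or TGCGCNC. MT2A held 7 matches, a number reached by 11 of 35116 promoters (0.0313%). MT1X held 4 matches, and 0.370% of promoters held as many. SLC30A1 held 1, where 24.8% of promoters held at least 1, and MTF1 held none. No matches overlapped. RefSeq and GENCODE place the start of some of these genes differently. The sequences run 5′ to 3′ on the strand of the gene up to its start, with capitals at the matches. A match is a string of letters and says nothing of whether MTF1 was bound in these cells.
MT2A, chr16:56608334-56608583, plus strand: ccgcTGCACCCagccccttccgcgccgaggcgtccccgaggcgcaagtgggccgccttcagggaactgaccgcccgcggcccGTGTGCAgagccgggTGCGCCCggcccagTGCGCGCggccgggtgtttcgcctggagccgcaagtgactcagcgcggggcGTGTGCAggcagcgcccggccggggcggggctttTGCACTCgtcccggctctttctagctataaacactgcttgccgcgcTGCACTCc
MT1X, chr16:56682220-56682469, plus strand: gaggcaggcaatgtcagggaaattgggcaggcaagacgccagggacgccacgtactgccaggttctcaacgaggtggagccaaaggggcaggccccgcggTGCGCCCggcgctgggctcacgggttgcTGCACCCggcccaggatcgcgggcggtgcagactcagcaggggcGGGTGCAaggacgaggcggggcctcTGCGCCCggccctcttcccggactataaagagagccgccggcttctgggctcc
SLC30A1, chr1:211579162-211579411, minus strand: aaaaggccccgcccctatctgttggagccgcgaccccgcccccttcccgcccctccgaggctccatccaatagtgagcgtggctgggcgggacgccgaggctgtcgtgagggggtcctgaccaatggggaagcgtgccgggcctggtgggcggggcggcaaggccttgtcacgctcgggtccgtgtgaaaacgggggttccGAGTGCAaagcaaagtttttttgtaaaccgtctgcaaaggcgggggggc

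**Figure D1:**
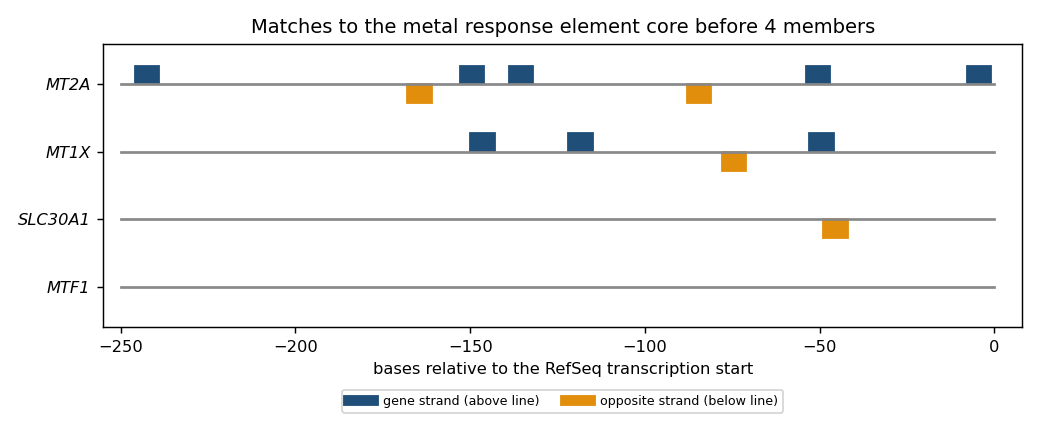
Position of the matches in the 250 bases before the RefSeq start of 4 members, in bases from the start on the x axis, with gene-strand matches above each line and opposite-strand matches below. MT2A has 7 matches, MT1X 4, SLC30A1 1 and MTF1 none.

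MT2A was the leading metallothionein in both assays, at very different heights. In TruSeq it stood at 111, 114 and 124 CPM in knockout clone 1, against 153, 129 and 152 CPM in the control. Every knockout library lay below every control library. Raw counts were 1202, 1958 and 1866 in the knockout and 1796, 1594 and 2768 in the control. The mean was 116 CPM with an SD of 6.46 in the knockout, against 145 CPM with an SD of 13.95 in the control (3 libraries each), a fitted log2 change of -0.32 (SE 0.09).

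MT1E, a second zinc-binding isoform, was next. It stood at 53.7, 55.6 and 65.7 CPM in knockout clone 1, against 64.7, 70.1 and 79.8 CPM in the control (log2 change -0.29, SE 0.11). The ranges touched, since the highest knockout library exceeded the lowest control library. MT1X stood at 10.01, 11.4 and 10.5 CPM in the knockout, against 17.1, 13.6 and 14.9 CPM in the control (log2 change -0.51, SE 0.12), and the groups did not overlap.

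The rest of the family was barely expressed in TruSeq. MT1F had 5, 14 and 7 counts in the knockout, against 8, 10 and 21 in the control (log2 change -0.59, SE 0.46), and MT1M had 55 counts in all in the knockout and 42 in the control (0.35, SE 0.38). MT1G had 3 counts in all in the knockout and 2 in the control, where the 3-count floor is 0.165 to 0.278 CPM. The standard error of MT1M exceeded its change, and the MT1F groups overlapped.

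MTF1, the zinc sensor, was lower in knockout clone 1 in TruSeq, and the exporter was not. MTF1 stood at 22.0, 23.7 and 24.2 CPM in the knockout, against 27.6, 30.8 and 28.8 CPM in the control (log2 change -0.32, SE 0.09), with no overlap. SLC30A1 stood at 53.6, 49.9 and 53.5 CPM in the knockout, against 47.5, 47.5 and 50.1 CPM in the control (0.11, SE 0.07), and the groups overlapped narrowly.

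Of the 7 members tested in TruSeq, 1 was past the threshold (edgeR quasi-likelihood test, adjusted p below 0.05 over all genes), namely MT1X, which was lower. Of all 17371 genes tested 6.27% were past it, 688 higher and 401 lower, and since the same comparison chose the members nothing is read from their count. MT1X was no longer past the threshold when any 1 of the 6 libraries was left out (log2 change -0.58 to -0.42), under DESeq2, without the filter or without TMM scaling. The groups did not overlap for 3 of the 7 (MT2A, MT1X and MTF1), against 26.3% of all genes tested. The median log2 change of the 7 was -0.32, and that of all genes was -0.00.

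Summed over the 6 genes, metallothionein RNA was at 187 ± 13.01 CPM in knockout clone 1, against 233 ± 17.7 CPM in controls (SD over 3 libraries), a log2 change of -0.32. The sum does not depend on how reads were split among the 6 genes, unless shared reads were dropped. A split with metallothionein genes outside the sum that share windows with them, such as MT1JP, still enters it. The change was -0.36 within the 3 libraries with many features and -0.38 within the 3 with few. The makeup of the family overlapped between the groups: MT2A gave 61.2% to 62.9% of its counts in the knockout and 60.1% to 64.7% in the control, MT1E 30.3% to 32.6% and 27.3% to 32.7%, and MT1X 5.18% to 6.27% and 5.99% to 7.199%. Levels were also scaled per kilobase of exon, counting every base that is exonic in any annotated transcript. By this length the order in the knockout was MT2A (89.5 CPM per kb), MT1E (55.5), SLC30A1 (9.56), MT1X (5.998), MTF1 (2.91), MT1M (1.38), MT1F (0.307) and MT1G (0.112). For MT2A and MT1X the length covers the whole gene, introns included. Their values are thus lower than a spliced length would give, and the order depends on the length used. In the control SLC30A1 and MT1X stood at 8.83 ± 0.284 and 8.56 ± 0.998 CPM per kb, within their spread.

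**Figure D2:**
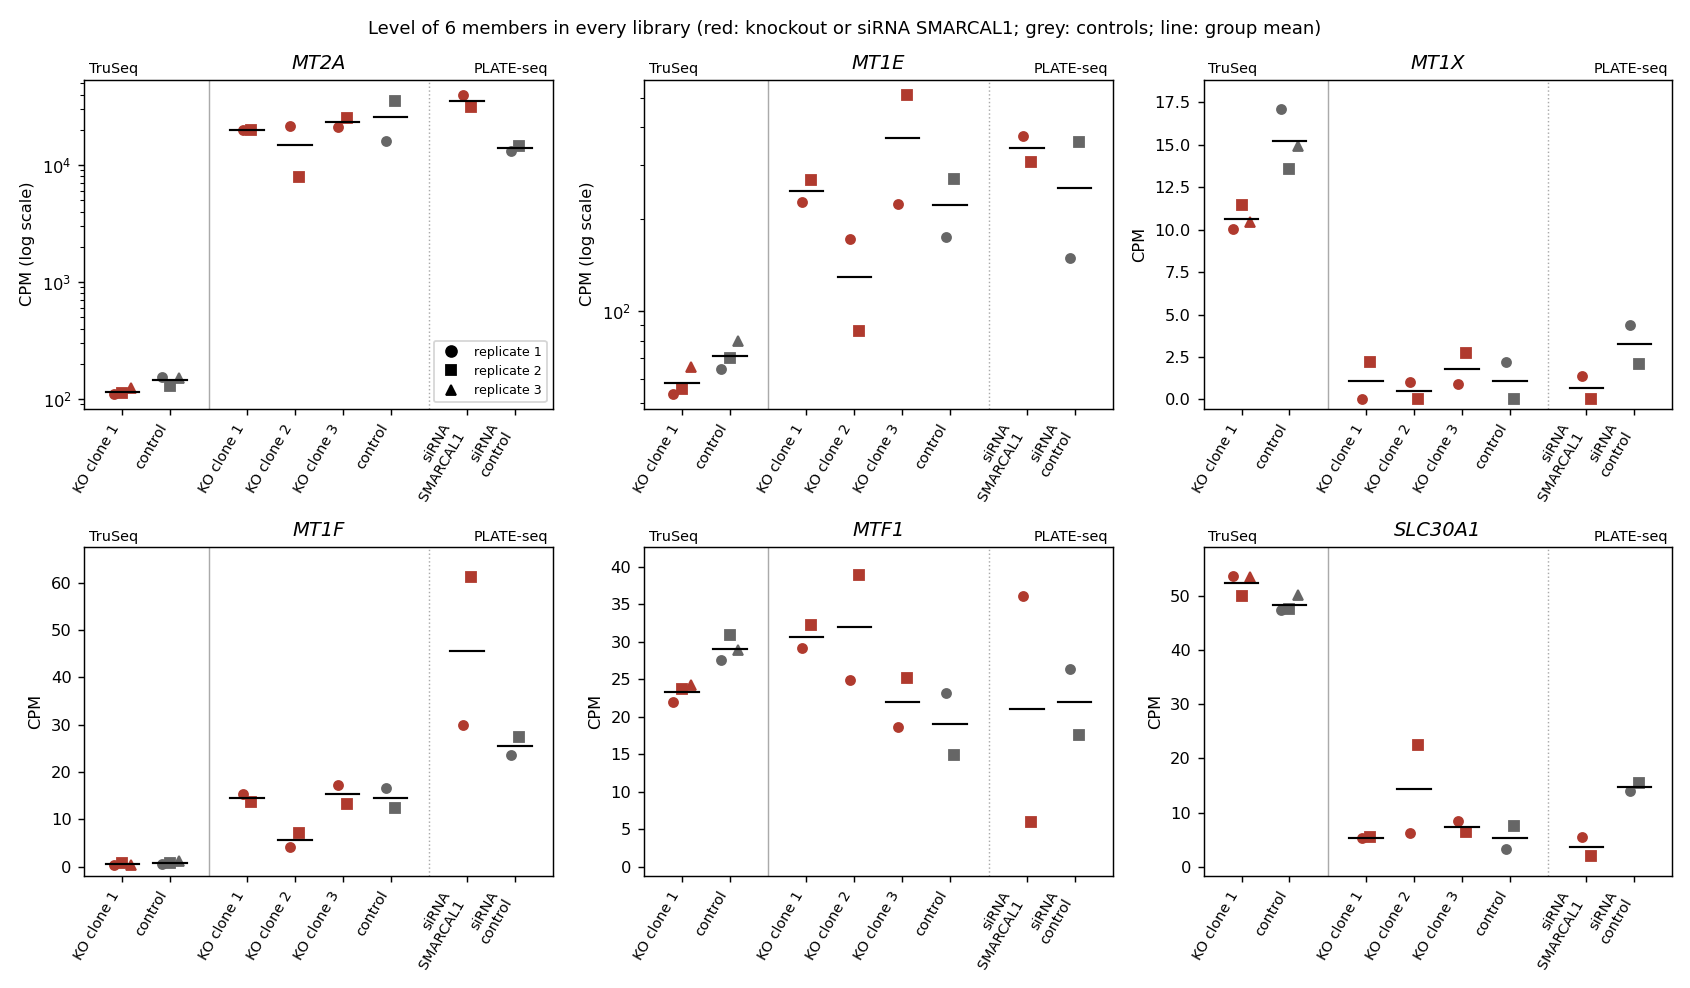
CPM of 6 members in each of the 18 libraries (log scale for MT2A and MT1E), with knockout and SMARCAL1 siRNA groups in red and their controls in grey, a symbol for each replicate number and a line at each group mean. MT2A lies at 111 to 153 CPM in TruSeq and at 7990 to 40003 CPM in PLATE-seq.

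In PLATE-seq MT2A was among the features with the most counts. It took 0.812% to 3.73% of all counts in the 12 libraries and ranked 1 to 6 among nuclear-encoded features, while in TruSeq it ranked 1192 to 1904 and took 0.0108% to 0.0162%. In knockout clone 1, measured in both assays, it averaged 19955 CPM in PLATE-seq and 116 CPM in TruSeq, and in the control 25602 CPM and 145 CPM. With 1 CPM added to each, the log2 difference of PLATE-seq minus TruSeq was 7.41 in clone 1 and 7.46 in the control, which ranked 6 among 8177 genes tested in both.

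The other members did not share that height. The same log2 difference was 2.07 in clone 1 and 1.63 in the control for MT1E, 3.30 and 3.04 for MT1F, 0.38 and -0.58 for MTF1, and -3.06 and -2.95 for SLC30A1, beside a median of -0.99 over all genes in each. MT1X went the other way in level, with 10.01 to 17.1 CPM in TruSeq and 0 to 4.38 CPM in PLATE-seq (28 counts in the 12 libraries). MT1M had 0 counts in all 12 PLATE-seq libraries and MT1G had 3. MT2A thus gave 97.4% to 99.2% of metallothionein counts in PLATE-seq and MT1E 0.765% to 2.39%, shares of counts not scaled by length.

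Gene length moved with this difference. In the control its median was 1.13 over the 54 genes with under 800 bases of exon, 0.39 from 800 to 2000 bases, -0.71 from 2000 to 5000 bases and -1.30 above that. MT2A, MT1E, MT1F and MT1X have 1299, 1052, 1889 and 1773 bases of exon, SLC30A1 5474 and MTF1 8024. All these lengths count bases that are exonic in any annotated transcript. For MT2A and MT1X that is the whole gene, introns included, so their spliced transcripts are shorter and may belong to a shorter length class. The assays also differ in RNA selection, priming and depth, and the assays were not run on the same libraries, so the part of each in the height of MT2A cannot be told apart.

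**Figure D3:**
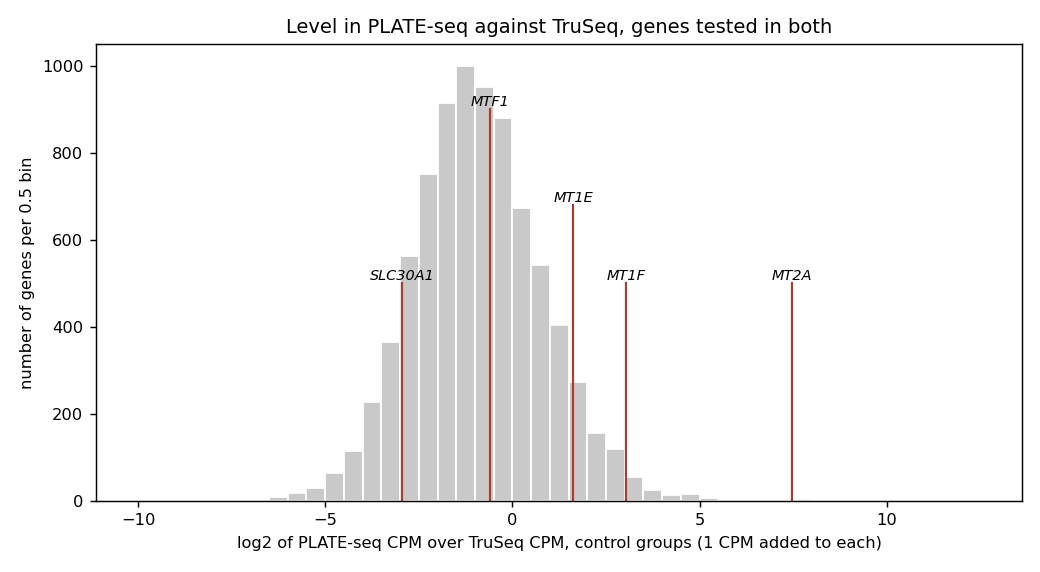
Number of genes (of 8177, bins of 0.5) by the log2 of PLATE-seq CPM over TruSeq CPM in the control groups, with 1 CPM added to each; red lines mark 5 members. MT2A stands at 7.46, far from the median of -0.99, and SLC30A1 at -2.95.

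Across the knockout clones in PLATE-seq, MT2A differed less between the groups than between the 2 control libraries. It stood at 19930 and 19981 CPM in clone 1, 21616 and 7990 CPM in clone 2 and 21227 and 25139 CPM in clone 3, against 15993 and 35212 CPM in the control. The control libraries enclosed all but 1 of the clone libraries, clone 2 replicate 2. The fitted log2 changes were -0.36 (SE 0.32), -0.79 (SE 0.32) and -0.14 (SE 0.31) for clones 1, 2 and 3, and -0.43 (SE 0.25) for their mean.

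The sign of the change differed between the replicate numbers. Among libraries numbered 1, all 3 clones were above the control, by log2 0.32, 0.43 and 0.41 for clones 1, 2 and 3. Among libraries numbered 2, all 3 were below it, by -0.82, -2.14 and -0.49. All 3 contrasts share the control libraries, at 15993 CPM for number 1 and 35212 CPM for number 2. Elsewhere MT2A did not differ between the numbers in the same direction. It was lower at number 2 in clone 2 (21616 and 7990 CPM) and with siRNA SMARCAL1 (40003 and 31092 CPM). It was higher there in clone 3 (21227 and 25139 CPM) and with siRNA control (13183 and 14578 CPM). Clone 1 was nearly level (19930 and 19981 CPM). Over 9 refits with other settings or a library left out, MT2A in clone 2 stayed below the control (-1.67 to -0.12). In clones 1 and 3 the sign held in 8 of 9 refits each (-0.81 to 0.33 and -0.59 to 0.55). The number also went with the spike-in counts, whose part in the result was not tested. Summed metallothionein RNA averaged 20219 CPM in clone 1, 14938 CPM in clone 2 and 23568 CPM in clone 3, against 25842 CPM in controls, a log2 change of -0.40 for the mean of the clones, and it was 0.28 without control replicate 2 and 0.47 when the siRNA control took the place of the control.

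**Figure D4:**
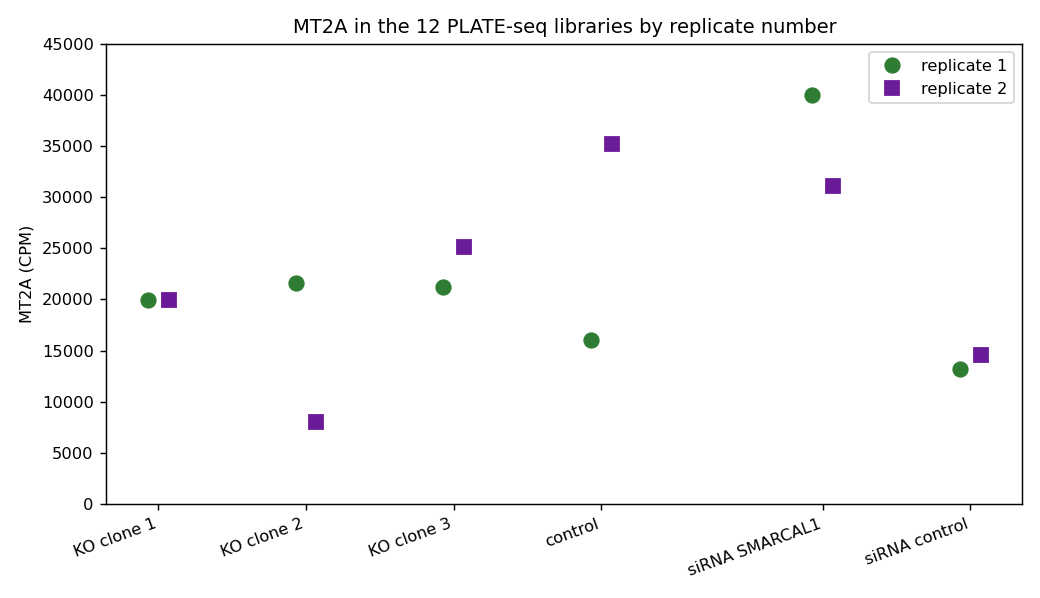
MT2A (CPM, linear scale) in the 12 PLATE-seq libraries, by group on the x axis and replicate number by colour and symbol. Replicate 1 of each clone lies above control replicate 1 and replicate 2 of each clone below control replicate 2, while both SMARCAL1 siRNA libraries lie above both siRNA control libraries.

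The other members did not move as a block in the clones. MT1E stood at 228 and 268 CPM in clone 1, 172 and 86.1 CPM in clone 2 and 224 and 511 CPM in clone 3, against 175 and 272 CPM in the control (log2 change 0.15, -0.79 and 0.72, SE 0.39 to 0.40). Clone 2 lay wholly below the control and the other clones did not. MT1F had 26 and 25 counts in clone 1, 4 and 7 in clone 2 and 39 and 44 in clone 3, against 15 and 10 in the control (-0.00, -1.35 and 0.07, SE 0.51 to 0.65). Clone 2 was thus lowest of the 3 clones in the group means of MT2A, MT1E and MT1F, although for MT2A its replicate 1 lay above control replicate 1.

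MTF1 was higher in clones 1 and 2 than in the control in PLATE-seq, by little more than the standard error of each change. It stood at 29.1 and 32.2 CPM in clone 1, 25.0 and 38.9 CPM in clone 2 and 18.7 and 25.2 CPM in clone 3, against 23.2 and 14.9 CPM in the control (log2 change 0.68, 0.74 and 0.20, SE 0.59 to 0.60). Clones 1 and 2 did not overlap the control, which rested on 33 counts in all. The share of all genes without overlap was not computed for the clones. In the siRNA comparison, also of 2 libraries against 2, it was 37.4%. SLC30A1 had 2 to 22 counts in every PLATE-seq library, and stood at 5.35 and 5.46 CPM in clone 1, 6.24 and 22.5 CPM in clone 2 and 8.44 and 6.38 CPM in clone 3, against 3.32 and 7.44 CPM in the control (0.02, 1.42 and 0.46, SE 0.89 to 0.92).

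None of the 5 members tested was past the edgeR threshold in any clone, in a setting where few genes were: 0% of 8595 genes for clone 1, 0.0349% for clone 2, 0.663% for clone 3 and 0.198% for the mean of the clones. At an unadjusted p below 0.05 the genes were 704, 830, 1026 and 869 in the same order, and DESeq2 called 20, 33, 120 and 46, with no member among them. Without the filter on low counts MT2A passed in clone 2, among 61 of 17193 genes tested. Nothing is read from that call, since the members were chosen with these changes known. The median log2 change of the 5 was 0.02, -0.79 and 0.20 in clones 1, 2 and 3. The 3 clones share their 2 control libraries, so their changes are not independent of each other.

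With siRNA against SMARCAL1, MT2A stood at 40003 and 31092 CPM, against 13183 and 14578 CPM with the control siRNA. Both SMARCAL1 siRNA libraries were thus far above both control siRNA libraries. The mean was 35548 ± 6301 CPM with siRNA SMARCAL1 and 13880 ± 986 CPM with siRNA control (SD, n = 2 each), a fitted log2 change of 1.36 (SE 0.32). The change was 1.60 between the libraries numbered 1 and 1.09 between those numbered 2, and from 1.16 to 1.53 over 9 refits with other settings or a library left out.

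The rest of the family was less marked. MT1E stood at 375 and 307 CPM with siRNA SMARCAL1, against 149 and 357 CPM with siRNA control (log2 change 0.43, SE 0.39), which overlapped, and its sign differed between the numbers (1.33 and -0.22). MT1F stood at 29.9 and 61.3 CPM, against 23.7 and 27.4 CPM (0.82, SE 0.50), without overlap. MT1X had 2 and 0 counts with siRNA SMARCAL1 and 5 and 3 with siRNA control, too few for a fold. Without MT2A the summed change was 0.46, against 1.34 with it.

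The zinc sensor and the exporter did not follow MT2A with the siRNA. MTF1 stood at 36.1 and 5.93 CPM with siRNA SMARCAL1, a wide spread between replicates, against 26.3 and 17.5 CPM with siRNA control (log2 change -0.00, SE 0.60). SLC30A1 had 8 and 2 counts with siRNA SMARCAL1 (5.44 and 1.98 CPM), against 16 and 22 with siRNA control (14.02 and 15.4 CPM), a log2 change of -1.91 (SE 0.89), and it did not overlap.

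None of the 5 members tested passed the edgeR threshold with the siRNA, where 0% of 8595 genes did; 544 genes had an unadjusted p below 0.05 and DESeq2 called 13, with no member among them. Without the filter on low counts MT2A passed, among 22 of 17193 genes tested. Nothing is read from that call either, since the members were chosen with these changes known. The groups did not overlap for 3 of the 5 members (MT2A, MT1F and SLC30A1), against 37.4% of all genes. Summed fibroblast markers, COL1A1 with DCN at 0, stood at 15.8 to 23.1 CPM with siRNA SMARCAL1 and 3.51 to 7.02 CPM with siRNA control, and the sum of VIM, CD44 and AXL at 416 to 428 CPM and 525 to 572 CPM; their part in the result was not tested. In such bulk libraries more RNA per cell and more cells of a kind cannot be told apart.

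**Figure D5:**
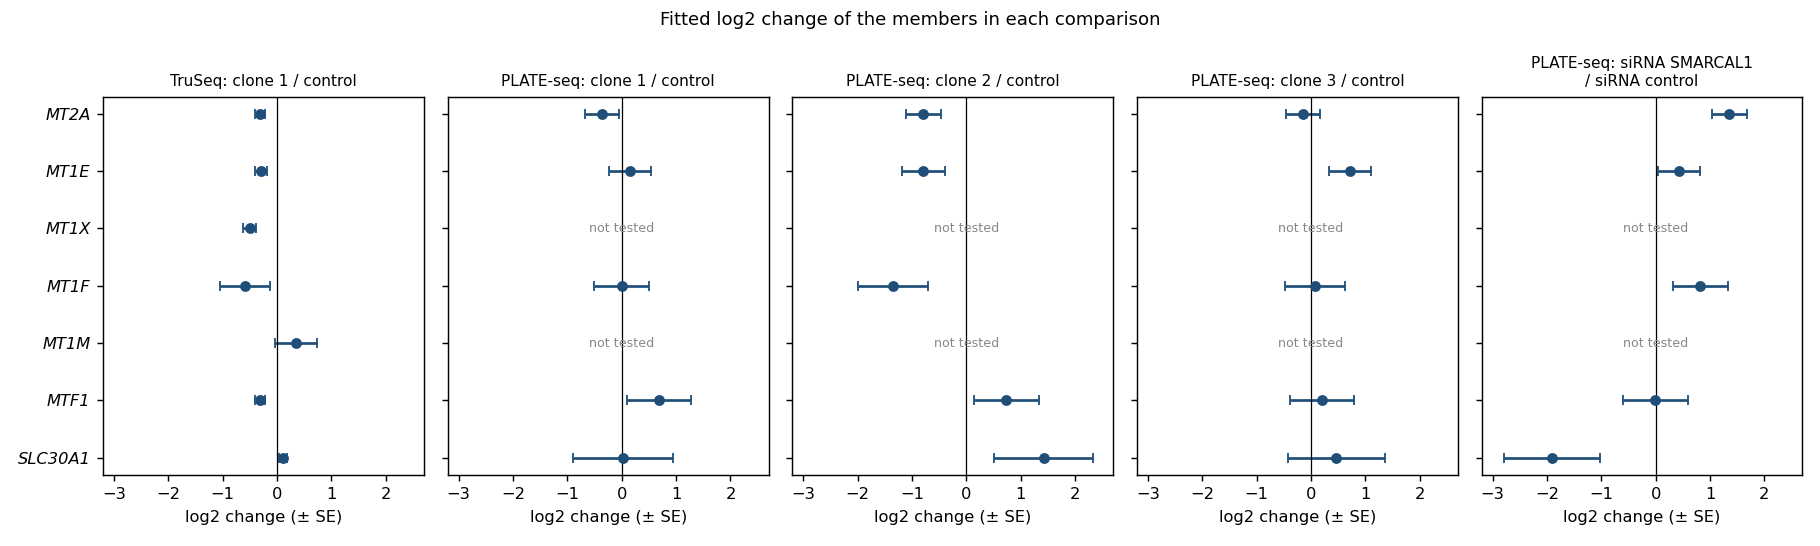
Fitted log2 change (± SE) of 7 members in each comparison, positive where the knockout or SMARCAL1 siRNA group is higher. MT2A is at -0.32 in TruSeq, -0.36, -0.79 and -0.14 in PLATE-seq clones 1, 2 and 3, and 1.36 with the siRNA.

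Placed in order by group mean, MT2A in PLATE-seq was highest with siRNA SMARCAL1 (35548 CPM), then in the control (25602), clone 3 (23183), clone 1 (19955), clone 2 (14803) and siRNA control (13880). Neighbours in this order overlapped in range except clones 3 and 1. The control siRNA libraries lay below both control libraries of the clones, and so a change of MT2A depends on which of these is its base.

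Genes with a pattern like that of MT2A were sought among 5628 genes of at least 10 CPM on average in both assays, by the smaller of their Pearson correlations (log2 CPM) over 6 TruSeq and 12 PLATE-seq libraries, which share depth and group structure. The closest were MRPS7, a mitochondrial ribosomal protein (r = 0.78 in TruSeq and 0.80 in PLATE-seq, rho 0.77 and 0.57), ANXA1, a phospholipid-binding protein (0.84 and 0.78, rho 0.66 and 0.61), C1QBP, a mitochondrial matrix protein (0.92 and 0.78, rho 0.94 and 0.73), NOB1, an endonuclease of ribosome maturation (0.90 and 0.77, rho 0.83 and 0.68), and SGK1, a kinase induced by glucocorticoids (0.76 and 0.80, rho 0.60 and 0.77). MT1E ranked 8 among them (0.79 and 0.73, rho 0.66 and 0.65). MT1X followed MT2A over the TruSeq libraries (r = 0.91, rho 0.94). MTF1 correlated with MT2A at 0.73 in TruSeq and -0.39 in PLATE-seq (rho 0.77 and -0.29), and SLC30A1 at -0.57 and -0.68 (rho -0.71 and -0.48).

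Other genes of metal handling were set beside the members, from lists drawn up with results of these libraries known. Of 15 other metallothionein genes and pseudogenes 3 were tested in TruSeq and 0 passed the edgeR threshold (1 at an unadjusted p below 0.05, 0 with DESeq2), with log2 changes of -0.64 to 0.30, and 0 were tested in PLATE-seq. Of the zinc exporters besides SLC30A1, 0 of 7 tested passed in TruSeq (0 unadjusted, 0 with DESeq2), with a median of -0.04. Of the zinc importers of the SLC39 family 0 of 11 passed (6 unadjusted), with a median of 0.17, and DESeq2 called 1, SLC39A8 (edgeR log2 change 0.37, SE 0.09, adjusted p = 0.0546).

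Among genes of copper and iron handling 1 of 15 tested in TruSeq passed. SOD1, which binds copper and zinc and removes superoxide, fell to 242 ± 12.3 CPM in knockout clone 1, against 321 ± 12.3 CPM in controls (log2 change -0.41, SE 0.07, edgeR adjusted p = 0.0107), but without control replicate 2 the adjusted p was 0.0876, without knockout replicate 2 it was 0.0594 and without knockout replicate 3 it was 0.0510 (2.03e-06 to 0.0876 over 13 alternatives). The list had a median of -0.05.

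Of 16 heat shock and oxidative stress genes that answer cadmium, 1 passed in TruSeq. BAG3, a co-chaperone of HSP70, rose to 79.5 ± 9.32 CPM in knockout clone 1, against 56.1 ± 4.22 CPM in the control (log2 change 0.50, SE 0.10, edgeR adjusted p = 0.0232), and lost the call without control replicate 1 (adjusted p = 0.0933) or 2 (0.162) and without knockout replicate 2 (0.101) or 3 (0.122), in a range of 3.57e-06 to 0.162 over 13 alternatives. HMOX1, the most cadmium-sensitive of the list as a rule and named here after its value was seen, had a log2 change of -0.08 (SE 0.14, edgeR adjusted p = 0.804).

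Of 10 glucocorticoid-responsive genes tested in TruSeq, 2 rose and 1 fell. ERRFI1, a feedback inhibitor of the EGF receptor, rose to 60.5 ± 2.25 CPM in knockout clone 1, against 20.9 ± 3.18 CPM in the control (log2 change 1.53, SE 0.11, edgeR adjusted p = 0.000215). SGK1 fell to 102 ± 6.02 CPM in the knockout, against 154 ± 8.41 CPM in the control (-0.59, SE 0.07, adjusted p = 0.00344). NR3C1, the glucocorticoid receptor, rose to 186 ± 9.46 CPM, against 155 ± 2.45 CPM (0.27, SE 0.06, adjusted p = 0.0465), and lost the call whichever single library was left out (adjusted p 0.0811 to 0.188, and 0.0048 to 0.207 over 13 alternatives). ERRFI1 (adjusted p up to 0.00325) and SGK1 (up to 0.0357) kept it in all 13. The list thus held genes past the threshold in both directions, with a median of -0.17, and SGK1 is also among the genes whose pattern is most like that of MT2A.

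In PLATE-seq 0 genes of these lists passed the edgeR threshold in any comparison. Per comparison 5 other zinc exporters (0 at an unadjusted p below 0.05), 11 zinc importers (1 to 3), 12 copper and iron genes (0 to 3), 15 stress genes (0 to 2) and 5 glucocorticoid-responsive genes (1 to 2) were tested, and DESeq2 called 1, the zinc importer SLC39A6, in clone 2. In PLATE-seq clone 1 the log2 change of SOD1 was 0.02 (SE 0.28), without the fall seen in TruSeq. ERRFI1 (2.24, SE 1.40), SGK1 (-1.53, SE 0.68), BAG3 (0.91, SE 0.55) and NR3C1 (0.49, SE 0.66) had the same sign there as in TruSeq, and also in clone 2. In clone 3 SGK1 (0.70, SE 0.62) and BAG3 (-0.38, SE 0.56) had the opposite sign and the others did not. With the siRNA ERRFI1 (-1.47, SE 1.48), SGK1 (1.55, SE 0.68) and NR3C1 (-0.88, SE 0.71) had the opposite sign and BAG3 did not. ERRFI1 had 3 counts in all in the PLATE-seq control of the clones.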

How the data were processed

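RNA was measured in 18 libraries of 8 groups, named by their titles. The deposited files hold raw gene counts that the authors obtained using STAR, HTSeq and hg38, per the submitters' processing notes; versions, annotation and the handling of strand and of multiply matching reads are not given in the sources used here. In PLATE-seq 92 spike-ins were left out. Depths were 10257584 to 19270648 counts in TruSeq and 807861 to 3068887 in PLATE-seq, and 3 counts were 0.165 to 0.278 and 0.911 to 3.72 CPM. Floors cover counting error only.

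The 2 assays were fitted apart, using edgeR 4.0.16 (R 4.3.3; filterByExpr at a minimum count of 10, TMM, quasi-likelihood test with group as the only term, Benjamini-Hochberg over all genes tested, threshold 0.05, two-sided): 17371 genes with 4 residual degrees of freedom in TruSeq and 8595 with 6 in PLATE-seq. The labels call replicates biological but do not say how cultures were kept apart, so p-values measure the spread between these libraries. The steps were tested on simulated data. Alternatives were RLE factors, no scaling, no filter, DESeq2 1.42.0, the replicate number as a block, a sum without MT2A, omission of each library, groups of TruSeq libraries by features detected, and another control.

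The members and gene lists were chosen with earlier results of these data known. Genes named were the 8 members, list genes past the threshold (at most 5 a list), the 5 genes most like MT2A and SMARCAL1; SLC39A8, SLC39A6 and HMOX1 were named outside that rule, after their values were seen. Positions and coding sequences are from GENCODE release 29, promoters from RefSeq.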

Additional observations from a re-analysis of the deposited data

Results flagged for a closer look

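MTF1 lay on opposite sides of the control in the 2 assays of the same knockout clone. In TruSeq all knockout clone 1 libraries lay below all control libraries (log2 ratio of group means -0.32), while in PLATE-seq both clone 1 libraries lay above both control libraries (0.69), a difference of -1.01. Against PLATE-seq clone 2 (0.75), whose libraries also lay above both control libraries, the difference was -1.06. Neither difference was tested, and the assays differ in RNA selection and depth: MTF1 had 237 to 524 counts in each TruSeq library and 6 to 83 in each PLATE-seq library. The PLATE-seq clones share their control libraries, and their fitted changes were little above their standard errors (0.68, SE 0.59, and 0.74, SE 0.60).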

How the results depend on the processing

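In TruSeq the summed metallothionein change was negative under all 12 alternatives (-0.38 to -0.27), as were those of MT2A, MT1E, MT1X and MTF1 under 13. Genes past the threshold there were 199 to 1145 when a library was left out, 2517 within the libraries with few features and 2387 with the replicate number as a block, under which 4 members (MT1E, MT1X, MT2A and MTF1) passed. With the block the 2387 were of 17371 genes tested, and the 4 were of 7 members tested. Nothing is read from these 4, since the members were chosen with earlier results of these data known. The replicate numbers were not taken to pair libraries. Same-numbered TruSeq libraries correlated at 0.85, -0.51 and 0.73 in their deviations from group means, and PLATE-seq ones at -0.04 to 0.07. The block moved no PLATE-seq count by over 1.5 times and left the TruSeq summed change at -0.32.

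In PLATE-seq, genes past the threshold without the filter and with DESeq2 were 83 and 46 for the mean of the clones, 36 and 20 for clone 1, 61 and 33 for clone 2, 156 and 120 for clone 3 and 22 and 13 for the siRNA; without scaling clone 2 had 5. Leaving out a library gave 5 to 52, 0 to 3, 3 to 12, 7 to 131 and 0 to 2 in the same order. The summed change over such omissions was -0.85 to 0.28 for the mean, -0.80 to 0.33 for clone 1, -1.67 to -0.12 for clone 2, -0.58 to 0.56 for clone 3 and 1.15 to 1.51 for the siRNA; omitting control replicate 2 turned the mean, clone 1 and clone 3 positive. Within libraries numbered 1, chosen after spike-in counts were seen, it was 0.39 for the mean, 0.32, 0.43 and 0.41 for clones 1, 2 and 3 and 1.60 for the siRNA, and within those numbered 2 it was -0.98 for the mean, -0.81, -2.13 and -0.47 for clones 1, 2 and 3 and 1.07 for the siRNA. It was 0.47 for the mean against the siRNA control, and without MT2A 0.68 for clone 3 and 0.46 for the siRNA. The cause was not tested. Depth limits MT1F, MT1X, MTF1 and SLC30A1 in PLATE-seq.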
